A study of Mus musculus with 33 samples.

Results

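The cell bodies and dendrites of cultured mouse motoneurons depleted of the noncoding RNA 7SK were set directly against those depleted of hnRNP R. A gene record entered the comparison when it reached 1 FPKM (fragments scaled to transcript length and library size) in either knockdown, which kept 13539 of 37926 records. The study's 33 samples came from primary motoneurons of CD-1 mice and from a cell line, and were sequenced for RNA level or for hnRNP R crosslinking. The somatodendritic groups were 7SK knockdown (4 libraries), hnRNP R knockdown (3 libraries) and GFP control (4 libraries). All were grown in microfluidic chambers, in which axons pass into a separate compartment. Their treatment label reads none, the age of the animals is not in the labels, and the knockdown method is not stated in the labels. The deposited tables give 1 FPKM value per group, so the spread between libraries and the read depth are unknown. No SD stands beside a group value for that reason, and nothing in the labels says that the libraries came from separate cultures.

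7SK is an abundant small nuclear RNA made by RNA polymerase III. With the proteins Mepce, Larp7 and Hexim1 it keeps the kinase P-TEFb, made of Cdk9 and a cyclin T, from releasing paused RNA polymerase II. When P-TEFb is freed, 7SK is found with hnRNP proteins instead. hnRNP R is one of these RNA-binding proteins and has been studied in motoneurons for its part in bringing beta-actin mRNA into axons. The direct comparison asks where loss of the RNA and loss of its partner protein leave different RNA levels.

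Each deposited table scaled its values separately, so the hnRNP R table was multiplied by 0.92, the median ratio of the control columns. After that, the control columns differed with an SD of 0.0021 on the log2 scale over 12372 records at 1 FPKM or more. The library descriptions name the tables inconsistently. The control libraries are listed under the hnRNP R table only, and the hnRNP R libraries also under the 7SK table. The groups used here follow the table headers and sample titles. The control level is shown as background and does not enter the ratio. Ratios are log2 of 7SK knockdown over hnRNP R knockdown with 0.1 FPKM added, so that low values are understated. Among bulk samples such as these, fewer cells of a type and less RNA per cell cannot be told apart.

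Both targets were lower in the knockdown named for them. Rn7sk, the 7SK RNA itself, lies on chromosome 9 (78175303 to 78175633, GRCm38). It stood at 6370 FPKM after 7SK knockdown, 12419 FPKM after hnRNP R knockdown and 9104 FPKM in the control. It was therefore 1.95-fold higher after hnRNP R knockdown, with the control between the knockdowns. Hnrnpr, on chromosome 4 (136310942 to 136345981), stood at 30.9 FPKM after 7SK knockdown, 9.97 FPKM after hnRNP R knockdown and 25.0 FPKM in the control. Its log2 ratio was 1.62. The Hnrnpr difference had an unadjusted p of 0.021 and an adjusted p of 0.385 in the approximate z test described next.

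The RNA tables give no value per replicate, so the direct ratio has no replicate test, and an approximate z test was made from the authors' results. It took the difference between the knockdowns' log2 changes from the control and divided it by a standard error built from the authors' p-values. In each table that error is the size of the log2 change over the normal quantile of the p-value. The SE given below is therefore not a spread measured between libraries. Where a p-value sits at the lowest value the authors' test gives, as for Rn7sk, the error is a fixed share of the log2 change. The spread of the common control enters that error though it cancels in the difference, which by itself enlarges the error. Of 1882 records with a completed test in both tables, 3 were higher (0.159%) and 2 lower (0.106%) in 7SK knockdown at a Benjamini-Hochberg adjusted p under 0.05. Without adjustment, 93 were higher and 64 lower at p under 0.05. With standard errors taken from the authors' test statistic instead, none of the 5 passed and 2 other records did, n-R5-8s1 (adjusted p = 2.97e-09) and Gm24601 (adjusted p = 0.0415). For each of the 5 the error from the p-values was the smaller one, as for Rn7sk (0.168 against 0.268) and Acta2 (0.253 against 0.439). For n-R5-8s1 it was the larger one (0.686 against 0.310). The calls therefore depended on how the error was read from the deposited tables, and the test cannot be taken as cautious.

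The 5 genes past the z test were Rn7sk, Acta2, Vgf, Nrep and Ptprz1. Rn7sk had an adjusted p of 1.99e-05 (0.206 with the test statistic, at most 1.98e-05 under the other alternatives). Acta2 encodes smooth muscle actin and stood at 130 FPKM after 7SK knockdown, 54.8 FPKM after hnRNP R knockdown and 76.3 FPKM in the control. Its difference was 1.25 ± 0.25 (log2, SE) with an adjusted p of 0.0008 (0.999 with the test statistic, at most 0.0008 otherwise). The control lay between the knockdowns.

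Vgf encodes a secreted neuropeptide precursor that responds to neurotrophins. Its levels were 33.9 FPKM after 7SK knockdown, 33.9 FPKM in the control and 8.53 FPKM after hnRNP R knockdown. The difference of 1.99 ± 0.49 (log2, SE) had an adjusted p of 0.0347 (0.639 with the test statistic, at most 0.0388 otherwise). Nrep, also known as P311, stood at 89.7 FPKM after 7SK knockdown, 87.0 FPKM in the control and 30.5 FPKM after hnRNP R knockdown. Its difference was 1.56 ± 0.40 (log2, SE) with an adjusted p of 0.046 (0.212 with the test statistic, at most 0.0476 otherwise). For Vgf and Nrep it was the hnRNP R value that stood away from the control. In the authors' deposited table for hnRNP R both had q = 0.00865, and in the one for 7SK their q-values were 0.99 and 0.915.

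Ptprz1, a receptor-type phosphatase of glial progenitors, was the only protein-coding gene past the test in the other direction. It stood at 25.7 FPKM after 7SK knockdown, 41.7 FPKM after hnRNP R knockdown and 36.4 FPKM in the control. The difference was -0.70 ± 0.18 (log2, SE) with an adjusted p of 0.0463 (0.999 with the test statistic, at most 0.048 otherwise).

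**Figure D1:**
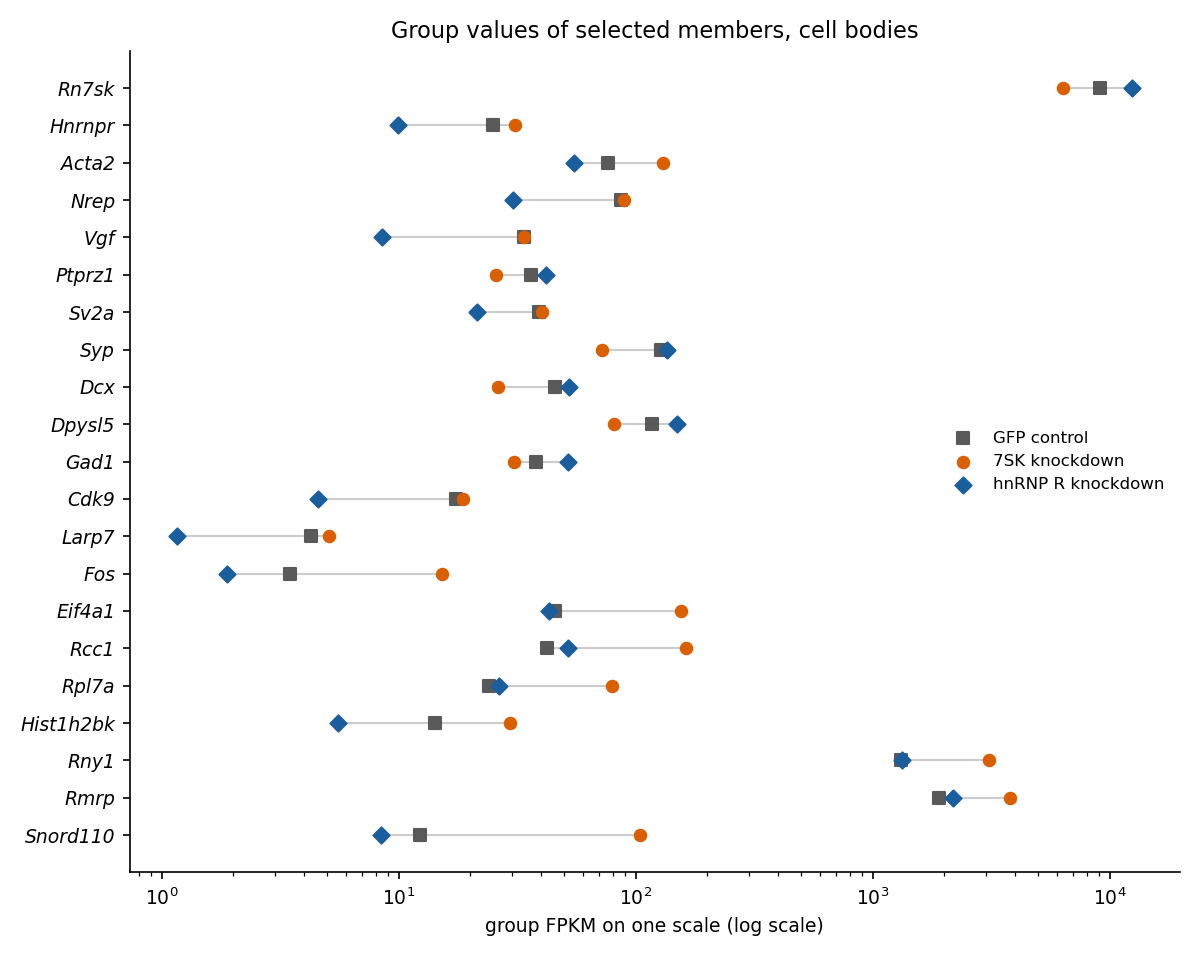
Group FPKM (log axis, on one scale) of 21 selected members in the GFP control (squares), 7SK knockdown (circles) and hnRNP R knockdown (diamonds), 1 value per group with no error available. Rn7sk and Ptprz1 are lowest in 7SK knockdown, Hnrnpr, Vgf and Nrep lowest in hnRNP R knockdown, and Eif4a1, Rcc1, Rpl7a and Rny1 stand out in 7SK knockdown alone.

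Across all members the log2 ratio had a median of 0.07, with quartiles of -0.40 and 0.61. A ratio of 2-fold or more was seen in 2109 members higher after 7SK knockdown (15.6%) and in 1509 lower (11.1%). The scatter depended on level. At 1 to 2 FPKM, 28.5% were 2-fold higher and 28.6% lower, and the interquartile range was 2.56. At 100 FPKM or more the interquartile range was 0.50, with 22 members 2-fold higher (7.28%) and 0 lower. At the entry threshold, the 234 members whose higher value was 1 to 1.1 FPKM had a median of -0.10, and the 233 records at 0.9 to 1 FPKM had 0.03.

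At 20 FPKM or more in either knockdown the balance tilted to 7SK knockdown. Of 2903 members, 194 were 2-fold or more higher there (6.68%) and 45 lower (1.55%), so 81.2% of those past 2-fold were higher. Without bringing the tables to one scale the counts were 148 and 88 (62.7% higher), and with the members centred at 0 they were 163 and 67 (70.9% higher). Without scaling the median log2 ratio of all members dropped by 0.12, from 0.07 to -0.05. For protein-coding records alone the counts were 121 and 35 of 2568. Of the 194 higher members, 149 had the control between the knockdowns, and the same held for 36 of the 45 lower ones. Within 2-fold it was 1078 of 2664. Knockdown values picked for lying far apart leave more room for a control between them. These counts therefore do not show that the knockdowns moved in opposite directions. In the higher tier the 7SK value was the one farther from the control for 115 members and the hnRNP R value for 79.

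**Figure D2:**
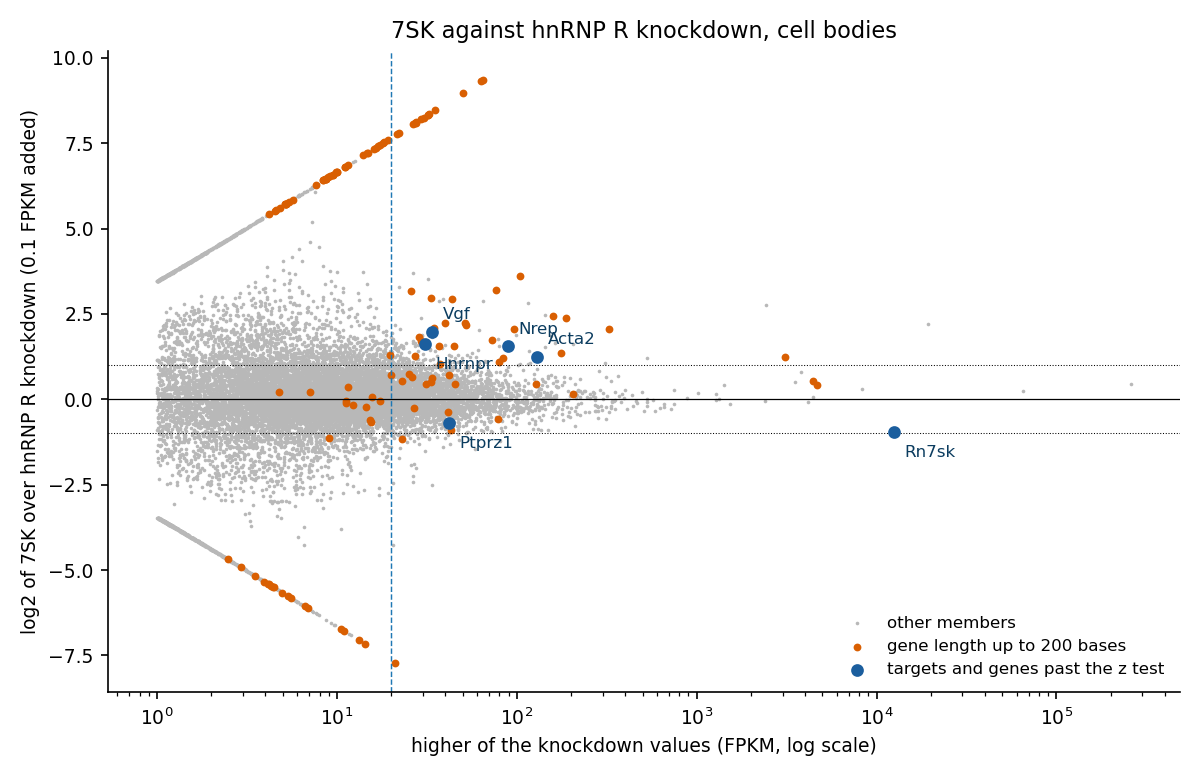
Log2 of 7SK over hnRNP R knockdown (vertical axis) against the higher of the knockdown values in FPKM (horizontal axis, log scale) for 13539 members; the dashed line marks 20 FPKM, the dotted lines 2-fold, and the slanted edges are records listed at 0 in one knockdown. Members of up to 200 bases (orange) lie mostly above 0 beyond the dashed line, where 39 are 2-fold higher and 2 lower.

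Of the 194 members 2-fold higher at 20 FPKM or more, 121 were protein coding and 39 had up to 200 bases. Short structured RNAs were frequent among the highest ratios. Among such RNAs are small nucleolar RNAs (snoRNAs), which guide the chemical modification of ribosomal RNA and are mostly cut out of introns of host genes, and small nuclear RNAs (snRNAs) of the splicing machinery. Of 46 members with the RefSeq type snoRNA at 20 FPKM or more, 39 lay above 0, 31 were 2-fold higher after 7SK knockdown and 2 were lower, with a median log2 ratio of 1.73. Over all members at that level 6.68% were 2-fold higher and 1.55% lower. Their summed FPKM was 2178 after 7SK knockdown, 887 after hnRNP R knockdown and 485 in the control. Of these snoRNAs, 12 were listed at 0 after hnRNP R knockdown and 1 after 7SK knockdown. In the 7SK knockdown 44 of 46 stood above the control, and in the hnRNP R knockdown 27 of 46. The control had no part in the 20 FPKM filter, and the 12 passed it through the 7SK value alone. The counts and sums against the control are therefore partly built in and do not show a rise over it. A value of 0 in these tables does not show that an RNA was missing, since the ribosomal protein genes Rpl3, Rpl29, Rps12 and Rps27 are also listed at 0 in both knockdowns and the control. Among 48 members named as snoRNA or scaRNA records, a list matched by name, the median was 1.95, or 0.86 for those at 1 FPKM or more in both knockdowns. FPKM of RNAs shorter than a sequenced fragment rests on a large length correction, and 1 group value does not show whether all libraries share it.

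Among snoRNAs found in both knockdowns, Snord110 stood at 105 FPKM after 7SK knockdown, 8.46 FPKM after hnRNP R knockdown and 12.4 FPKM in the control. Snord82 stood at 76.8, 8.22 and 4.43 FPKM in the same order. Snora7a stood at 52.4, 11.6 and 12.6 FPKM. In all 3 the 7SK value was above both others, and these examples were chosen after their values were seen. The 12 highest ratios at 20 FPKM or more all belonged to records listed at 0 after hnRNP R knockdown, for which no fold is given. They were short wherever a length was known. They ranged from Gm25820 at 27.6 FPKM to Gm23297 at 65.3 FPKM after 7SK knockdown and included Snord87 (63.5 FPKM), Snord111 (32.1 FPKM), Snora30 (32.2 FPKM) and Snora16a (29.3 FPKM). In the control they lay between 0 and 12.4 FPKM. The other members of that set were Gm22486, Gm25615, Gm23145, Gm26397, n-R5s136 and Gm22584.

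Exceptions ran the other way or stayed near 0. Gm22980, a snoRNA record, was listed at 0 after 7SK knockdown and in the control and at 21.1 FPKM after hnRNP R knockdown. Snord104 stood at 10.3 FPKM after 7SK knockdown and 23.1 FPKM after hnRNP R knockdown. Scarna2, a guide RNA of Cajal bodies, stood at 204 and 183 FPKM (log2 ratio 0.16).

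Other small RNAs gave similar orders. Of 9 snRNA members at 20 FPKM or more, 6 were 2-fold higher after 7SK knockdown and Rn7sk was the only one below 0. Over all members at that level 6.68% were 2-fold higher. Here too the filter favours high values, as 1 of the 9 was listed at 0 after hnRNP R knockdown. The count is therefore partly built in. Gm25360 stood at 324 FPKM after 7SK knockdown, 77.8 FPKM after hnRNP R knockdown and 84.2 FPKM in the control. Rnu3a stood at 31.9, 2.69 and 9.88 FPKM and passed the filter through the 7SK value alone. Rny1, a Y RNA bound by the Ro protein, stood at 3106 FPKM after 7SK knockdown, 1327 FPKM after hnRNP R knockdown and 1322 FPKM in the control, an adjusted p of 0.0876 in the z test. Rmrp, the RNA of the RNase that processes ribosomal RNA precursors, stood at 3812, 2187 and 1902 FPKM.

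Not all abundant small RNAs followed. Rny3 stood at 4684 FPKM after 7SK knockdown and 3496 FPKM after hnRNP R knockdown (log2 ratio 0.42). Rpph1, the RNA of RNase P, stood at 4440 and 4273 FPKM (log2 ratio 0.06). The ribosomal RNA record n-R5-8s1 did follow, with a log2 ratio of 2.19. It stood at 19234 FPKM after 7SK knockdown, 4215 FPKM after hnRNP R knockdown and 2900 FPKM in the control. It passed the z test only with standard errors from the test statistic. Gm26924, named because it holds the highest value of all, took 43% of the summed FPKM after 7SK knockdown, 38.6% after hnRNP R knockdown and 36.8% in the control. Its part in the FPKM scale was not tested.

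The ratio was smaller for longer genes. Members up to 200 bases at 20 FPKM or more had a median of 1.79 (58 members, 39 higher and 2 lower past 2-fold). Those of 201 to 500 bases had 0.41 (45 members), those of 501 to 1000 bases 0.23 (52 members), those of 1001 to 10000 bases 0.18 (653 members), and those longer than 10000 bases 0.00 (1935 members, 68 higher and 24 lower). Among protein-coding genes the same order held from 201 to 500 bases (median 1.05, 13 members) to more than 10000 bases (median 0.00, 1929 members). That shortest class includes histone genes such as Hist1h2bk (500 bases), which are described as a group below, so both results share genes. The class of up to 200 bases shares members with the snoRNAs described above, of which 46 reached 20 FPKM. Of its 58 members, 15 were listed at 0 after hnRNP R knockdown and passed the filter through the 7SK value alone. How far the order rests on histone genes or snoRNAs was not tested.

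**Figure D3:**
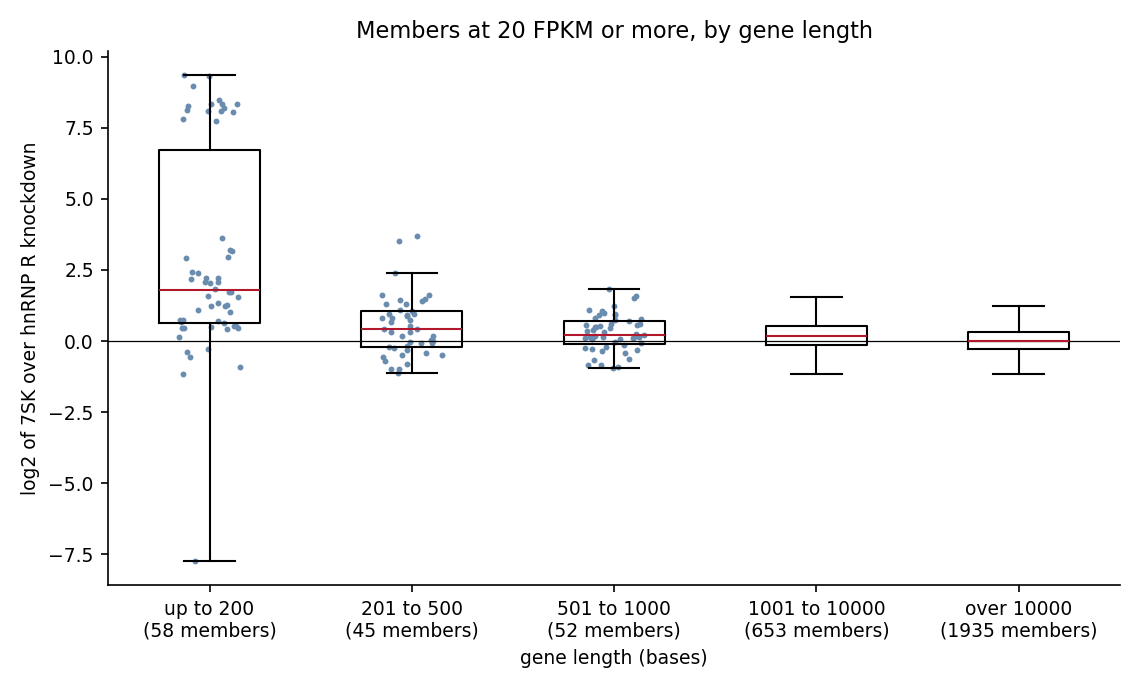
Log2 of 7SK over hnRNP R knockdown for members at 20 FPKM or more, by RefSeq gene length in bases; boxes show quartiles and median, whiskers reach 1.5 times the box height, and single members are drawn for classes of up to 100. The median falls from 1.79 in the shortest class to 0.00 in the longest.

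Genes that carry snoRNAs in their introns were also mostly on the high side. Of 41 members on a list of snoRNA host genes, 31 lay above 0 (75.6%, against 54.2% of all members), with a median of 0.45. Past 2-fold 7 were higher (17.1%, near the 15.6% of all members) and 2 lower. At 20 FPKM or more it was 23 of 27 (85.2%, against 55.2% of all members), with 6 higher and 0 lower and a median of 0.54. With merged records left out the medians were 0.28 over 35 members and 0.40 over 22, and 4 and 3 members were 2-fold higher. All such medians are to be read against 0.07 for all members and 0.07 for those at 20 FPKM or more, and 0 members of the list passed the z test. Eif4a1, an RNA helicase of translation initiation, stood at 156 FPKM after 7SK knockdown, 43.3 FPKM after hnRNP R knockdown and 45.9 FPKM in the control. Rcc1, the exchange factor of the Ran GTPase, stood at 163, 51.6 and 42.3 FPKM. Rpl7a, a protein of the large ribosomal subunit, stood at 79.1, 26.5 and 24.0 FPKM. In these 3 genes the hnRNP R value lay near the control and the 7SK value above it.

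Several host records are merged with the snoRNAs they contain, so host and snoRNA reads cannot be told apart there. The record holding Snhg1 stood at 143 FPKM after 7SK knockdown and 25.6 FPKM after hnRNP R knockdown. The record holding Snhg7 stood at 38.7 and 4.98 FPKM. The record holding Gas5, a host of many snoRNAs, stood at 531 and 231 FPKM (log2 ratio 1.20). Reads from a snoRNA inside an intron of a separate record may also be shared, and how the authors counted them is not stated in the labels. Snhg9 ran the other way, listed at 0 after 7SK knockdown and at 6.00 FPKM after hnRNP R knockdown.

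Host genes of this kind are known for starting their transcripts with a run of pyrimidines, which ties them to the regulation of ribosomal protein synthesis. The start regions of 3 of them are shown from RefSeq (GRCm38.p6), 30 bases before and 30 from the annotated start on. These hosts were among the higher members and are shown because such a run was found there. Eif4a1, Rps3 and Rpl13, also higher, were looked up too, as were Eef2, Hspa8 and Ncl. All of these had no such run or no entry. Capitals mark a C followed by at least 4 further C or T bases, beginning within 5 bases of the start, on the strand of the gene. They lie at chr1:161035136-161035195 (+) for Gas5, chr2:26910777-26910836 (+) for Rpl7a and chr4:132345721-132345780 (-) for Rcc1.
Gas5: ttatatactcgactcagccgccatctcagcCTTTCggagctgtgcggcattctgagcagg
Rpl7a: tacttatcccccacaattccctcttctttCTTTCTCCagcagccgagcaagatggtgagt
Rcc1: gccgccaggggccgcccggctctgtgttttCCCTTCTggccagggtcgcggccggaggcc
Such a start was found in 8 of 21 host genes at 20 FPKM or more with an entry (38.1%), in 10 of 27 ribosomal protein genes (37%) and in 21.2% of 27025 genes in the table. In neurofilament, microtubule and growth cone genes, which lay close around 0, it was 8 of 27 (29.6%), and in presynaptic genes 4 of 24 (16.7%). These shares describe the annotated starts and not which start was used in these cells.

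Cytosolic ribosomal protein genes leaned the same way by less. Of 77 members 54 lay above 0 (median 0.28, 17 higher and 7 lower past 2-fold), and at 20 FPKM or more 32 of 38 did (median 0.34, 5 higher and 1 lower). Over all members 15.6% were 2-fold higher and 11.1% lower, and at 20 FPKM or more 6.68% and 1.55%. Rps3 stood at 288 FPKM after 7SK knockdown, 163 FPKM after hnRNP R knockdown and 89.8 FPKM in the control. Rplp1 stood at 115, 55.7 and 61.7 FPKM. Members with wide ratios lay on both sides, with Rpl13 at 37.0 and 4.91 FPKM, Rpl9 at 9.98 and 1.42 FPKM, Rpl18 at 2.76 and 19.2 FPKM, and Rpl36a listed at 0 after 7SK knockdown and at 5.71 FPKM after hnRNP R knockdown. Many of these genes have processed pseudogenes that can take or give reads.

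Translation factors (34 members, median 0.14) and nuclear genes of the respiratory chain (77 members, median 0.18) stayed closer to 0. Respiratory chain members past 2-fold numbered 4 in each direction, where 15.6% of all members were higher and 11.1% lower. Uqcr11, a small subunit of complex III, stood at 79.2 FPKM after 7SK knockdown and 37.0 FPKM after hnRNP R knockdown, and Ndufs5 of complex I at 1.89 and 13.1 FPKM. Neither list had a member past the z test.

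**Figure D4:**
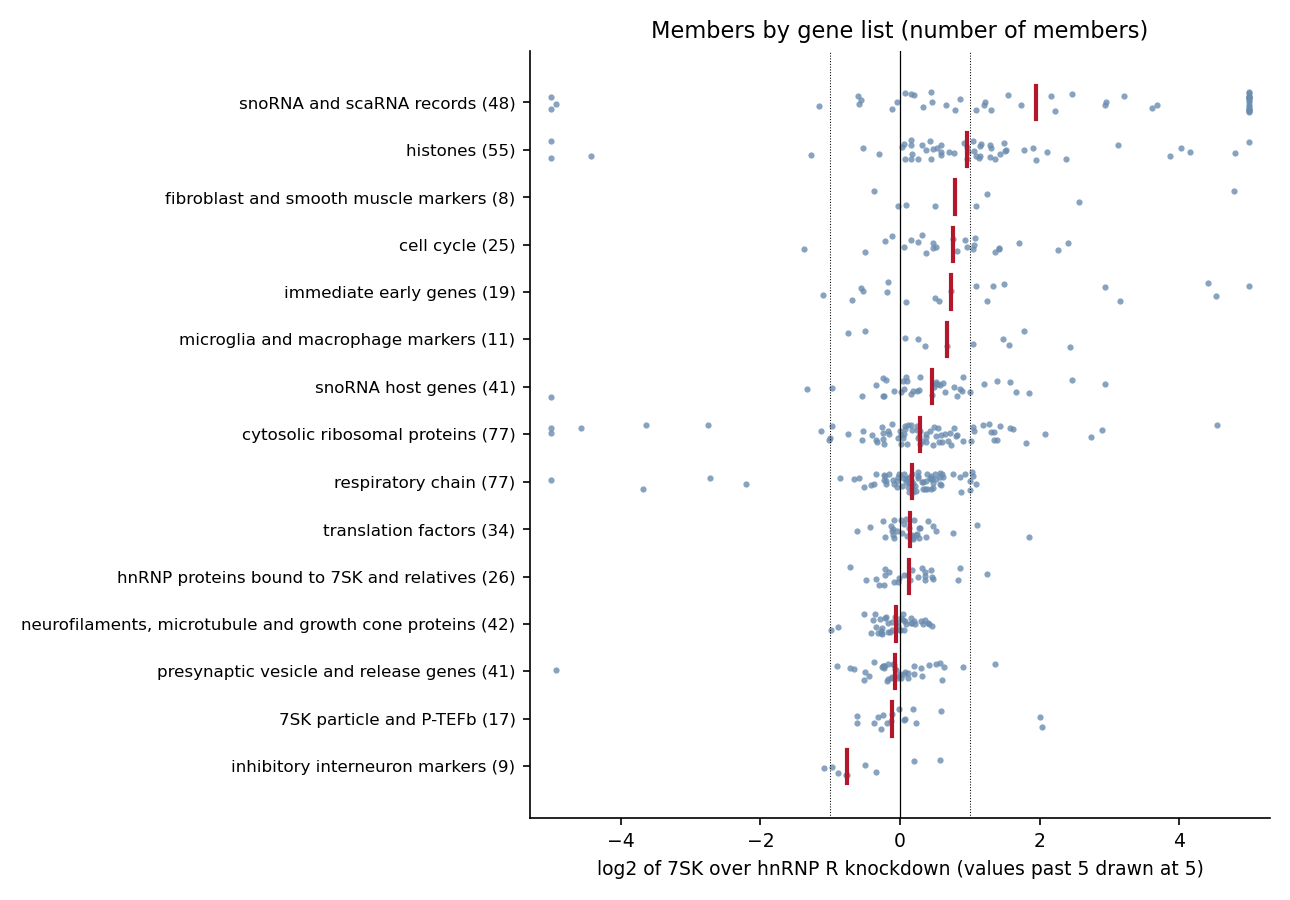
Log2 of 7SK over hnRNP R knockdown for members of 15 gene lists (each point 1 record, values past 5 drawn at 5, red bars the median, dotted lines 2-fold). Of the 15, snoRNA records have the highest median (1.95, or 0.86 for those at 1 FPKM or more in both knockdowns). Inhibitory interneuron markers have the lowest (-0.76), while cytoskeletal and presynaptic genes lie close around 0. Excitatory interneuron markers (median -0.77) are not drawn.

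Histone genes were higher after 7SK knockdown as a group. Of 55 members 49 lay above 0 (median 0.96), 26 were 2-fold higher and 4 lower, and at 20 FPKM or more all 17 lay above 0 with 9 of them 2-fold higher. The 2-fold higher share over all members was 15.6%, and 6.68% at 20 FPKM or more. None passed the z test among 13 tested. Hist1h2bk, an H2B gene, stood at 29.4 FPKM after 7SK knockdown, 5.56 FPKM after hnRNP R knockdown and 14.2 FPKM in the control. Hist1h2al stood at 144, 50.0 and 75.3 FPKM, Hist1h2bm at 23.2, 8.13 and 10.2 FPKM, and Hist2h2bb at 308, 149 and 198 FPKM. In each of these the control lay between the knockdowns. Hist1h1e stood at 55.8 and 49.9 FPKM after 7SK and hnRNP R knockdown, a log2 ratio of 0.16. Near-identical histone copies can share reads, so the values of single histone genes are uncertain.

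H2B promoters are known for an octamer bound by the factor Oct-1. It was searched as ATTTGCAT and its reverse complement ATGCAAAT in the RefSeq windows of 250 bases before to 50 bases after the start. It was found in 6 of 13 H2B members with an entry (46.2%), in 11 of 48 histone members (22.9%) and in 1.97% of 27025 genes. The windows are shown for the 3 H2B genes above, with the octamer in capitals. They lie at chr13:22035765-22035824 (+) for Hist1h2bk, chr13:21721993-21722052 (+) for Hist1h2bm and chr3:96269626-96269685 (+) for Hist2h2bb.
Hist1h2bk: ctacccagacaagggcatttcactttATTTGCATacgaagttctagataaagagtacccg
Hist1h2bm: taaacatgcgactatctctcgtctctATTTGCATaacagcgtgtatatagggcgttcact
Hist2h2bb: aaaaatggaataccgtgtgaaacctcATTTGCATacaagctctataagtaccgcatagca
The window of Hist1h2bk also serves the H2A gene Hist1h2ah, which is transcribed from it in the opposite direction. A match is a description of the letters and not a measured site.

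Cell cycle genes lay on the same side, at low levels. Of 25 members 21 lay above 0 (median 0.76, 9 higher and 1 lower past 2-fold), and only 2 reached 20 FPKM. Wide ratios are common at such levels. Among all members, 21.8% were 2-fold higher at 2 to 5 FPKM, 14% at 5 to 10 FPKM and 10.9% at 10 to 20 FPKM. The mitotic kinase gene Aurka stood at 12.6 FPKM after 7SK knockdown, 2.31 FPKM after hnRNP R knockdown and 4.02 FPKM in the control. Rrm2, a subunit of ribonucleotide reductase, stood at 13.9, 2.83 and 10.0 FPKM, and Top2a, a topoisomerase of dividing cells, at 18.7, 5.66 and 8.55 FPKM. The share of dividing cells in the cultures was not measured here.

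Immediate early genes, which neurons switch on with activity, had a median of 0.73 over 19 members (13 above 0, 9 higher and 1 lower past 2-fold). None reached 20 FPKM, so none was tested. Among all members, 28.5% were 2-fold higher at 1 to 2 FPKM and 21.8% at 2 to 5 FPKM. At 5 to 10 and 10 to 20 FPKM the shares were 14% and 10.9%. Fos stood at 15.2 FPKM after 7SK knockdown, 1.90 FPKM after hnRNP R knockdown and 3.47 FPKM in the control. Egr2 stood at 6.19, 0.20 and 3.37 FPKM, and Egr1 at 8.44, 3.49 and 3.67 FPKM. Nr4a2 ran the other way at 3.55, 7.72 and 4.85 FPKM.

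Genes of the 7SK particle proteins lay on both sides of 0. Of 17 members 7 lay above 0 (median -0.12), and none of the 5 at 20 FPKM or more passed 2-fold. There were 2 exceptions, both lower after hnRNP R knockdown. Cdk9, the kinase of P-TEFb, stood at 18.7 FPKM after 7SK knockdown, 4.58 FPKM after hnRNP R knockdown and 17.5 FPKM in the control. Larp7, which binds the end of 7SK and stabilises it, stood at 5.09, 1.17 and 4.28 FPKM. Neither had a completed test in both tables, and 14% of all members at 5 to 10 FPKM and 10.9% at 10 to 20 FPKM were 2-fold higher. Mepce, which caps 7SK, stood at 29.1 and 31.8 FPKM, and the cyclin gene Ccnt1 at 27.7 and 30.2 FPKM.

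Other hnRNP genes stayed close together. Of 26 members 15 lay above 0 (median 0.13, or 0.01 without scaling), and 1 passed 2-fold, a merged record holding Raly at 59.1 FPKM after 7SK knockdown and 24.8 FPKM after hnRNP R knockdown. Hnrnpa2b1 stood at 71.8 and 51.7 FPKM, Ptbp2, a splicing repressor of young neurons, at 22.7 and 31.9 FPKM, and Hnrnph3 at 8.03 and 13.3 FPKM. SR splicing factors had a median of 0.16 over 24 members. Zranb2 stood at 18.3 and 8.76 FPKM and Tra2b at 16.6 and 8.29 FPKM, with controls of 19.6 and 13.1 FPKM near the 7SK values.

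Neuronal structural genes lay close around 0. Neurofilament, microtubule and growth cone genes had a median of -0.06 over 42 members, 18 above 0, and none of them reached 2-fold in either direction. Tubb3, a neuronal tubulin, stood at 527 FPKM after 7SK knockdown and 526 FPKM after hnRNP R knockdown, and Tuba1a at 499 and 433 FPKM. The lowest ratios belonged to Dcx and Dpysl5, genes of microtubule organisation in growing neurites. Dcx stood at 26.2 FPKM after 7SK knockdown, 52.4 FPKM after hnRNP R knockdown and 45.6 FPKM in the control, an adjusted p of 0.0876 in the z test. Dpysl5 stood at 80.8, 150 and 118 FPKM.

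Presynaptic genes had a median of -0.08 over 41 members, 17 above 0, with single genes on both sides. The vesicle protein gene Sv2a stood at 40.2 FPKM after 7SK knockdown, 21.5 FPKM after hnRNP R knockdown and 39.0 FPKM in the control. Syp, another vesicle membrane protein, was lower after 7SK knockdown at 72.3 FPKM, against 135 FPKM after hnRNP R knockdown and 128 FPKM in the control. Snap25 stood at 160 and 152 FPKM. No gene of the list passed the z test.

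Granin and neuropeptide genes had a median of -0.05 over 17 members (0.06 with no filter on low values), and Vgf was the 1 member past the z test. Pcsk1n, a granin-like inhibitor of prohormone cleavage, stood at 42.3 FPKM after 7SK knockdown and 22.6 FPKM after hnRNP R knockdown, and Chga at 45.0 and 27.4 FPKM. Ion channel genes had a median of 0.13 over 46 members. Kcnk9, a leak potassium channel, stood at 10.8 FPKM after 7SK knockdown, 30.8 FPKM after hnRNP R knockdown and 51.9 FPKM in the control, so both knockdowns lay below the control. Among p53 targets Cdkn1a, an inhibitor of cyclin-dependent kinases, stood at 39.4 and 65.3 FPKM.

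The lowest ratios at 20 FPKM or more belonged mostly to protein-coding genes. Dctpp1, which clears modified nucleotides, stood at 0.98 FPKM after 7SK knockdown, 20.6 FPKM after hnRNP R knockdown and 19.2 FPKM in the control. Tmx4, a thioredoxin-like membrane protein, stood at 4.87, 26.5 and 21.0 FPKM, and Stard3nl, a late endosome protein, at 5.51, 26.5 and 22.1 FPKM. In these 3 the 7SK value was the one away from the control. Vprbp stood at 3.71, 20.6 and 9.44 FPKM, Prr3 at 6.69, 27.3 and 11.6 FPKM, and Axin1, a scaffold of Wnt signalling, at 6.60, 22.1 and 9.18 FPKM. Stt3a, a subunit of the oligosaccharyl transferase, stood at 21.2, 58.4 and 26.0 FPKM, and Ankrd24 at 8.23, 22.3 and 11.8 FPKM. In these the hnRNP R value was the higher one and the control lay nearer the 7SK value in FPKM. The pseudogene Gm9830 stood at 5.85, 34.0 and 21.1 FPKM. Except for Kcnk9, which is also in this set, none of these had a completed test in both tables.

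Markers of the labelled cell type and of others were read next. As ribosomal protein genes are listed at 0 too, a marker at 0 is not read as lack of expression. The motoneuron markers Chat, Mnx1 and Isl2 were listed at 0 in both knockdowns and the control, and Isl1 at 0, 0.52 and 2.23 FPKM after 7SK knockdown, after hnRNP R knockdown and in the control. Of 13 such markers with a record of their own, 6 stayed below 1 FPKM in all 3 groups. Slit2, Etv4, Ret, Slit3 and Calca were above 1 FPKM in all 3. In the same order, Slit2 stood at 16.4, 17.4 and 15.9 FPKM, Etv4 at 7.49, 4.25 and 8.59 FPKM, and Ret at 5.09, 5.41 and 7.25 FPKM. The general neuronal gene Tubb3 was above 500 FPKM as given above. Inhibitory interneuron markers were present, and 7 of 9 members lay below 0 (median -0.76, or -0.50 over 5 at 20 FPKM or more). Their summed FPKM was 214 after 7SK knockdown, 271 after hnRNP R knockdown and 252 in the control. Gad1, the enzyme of GABA synthesis, stood at 30.8, 52.1 and 38.0 FPKM, and the transcription factor genes Pax2 at 8.55, 18.3 and 15.0 FPKM and Lhx1 at 9.56, 18.9 and 15.1 FPKM. Slc6a5, the glycine transporter, ran the other way at 23.9, 16.1 and 32.0 FPKM, as did Npy at 75.8 and 66.0 FPKM in the knockdowns. A low median was not particular to inhibitory markers. Excitatory interneuron markers had -0.77 over 8 members (3 above 0, 3 higher and 4 lower past 2-fold). It became 0.53 for those at 1 FPKM or more in both knockdowns. Their summed FPKM was 56.1 after 7SK knockdown, 46.0 after hnRNP R knockdown and 47.2 in the control.

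Markers of non-neuronal cells differed as well. Of 15 microglia and macrophage markers 11 reached 1 FPKM, and 9 of these lay above 0 (median 0.67), and their summed FPKM was 110 after 7SK knockdown, 67.9 after hnRNP R knockdown and 71.1 in the control. Lyz2, a lysozyme gene, stood at 22.6, 7.58 and 17.0 FPKM and C1qa, a complement gene, at 15.4, 5.46 and 9.15 FPKM. The microglial genes P2ry12 and Tmem119 and, of the next list, Des were listed at 0 in both knockdowns. Of 16 fibroblast and smooth muscle markers 8 reached 1 FPKM, and 6 of these lay above 0 (median 0.79, but 0.29 at 1 FPKM or more in both knockdowns and 0.18 with no filter), with sums of 240, 126 and 153 FPKM. Acta2 and Tagln (41.8, 19.6 and 22.6 FPKM) carried most of that sum, while Col1a1 was at 2.66, 3.46 and 2.53 FPKM. Radial glia and astrocyte markers had a median of -0.06 over 16 members and sums of 728, 702 and 701 FPKM. The part of these cells in the histone, cell cycle, Acta2 and Ptprz1 differences was not tested.

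In axons, the same ratio was taken from the separate axonal tables. Of the 194 members 2-fold higher in cell bodies, 181 reached 1 FPKM in axons, and 113 of these lay above 0 there (median 0.24, 51 higher and 26 lower past 2-fold). Of the 45 lower members 44 did, and 27 lay below 0 (median -0.17, 3 higher and 12 lower). For members within 2-fold in cell bodies, 1428 of 2662 lay above 0 in axons. Across 1855 members at 20 FPKM or more on both sides, Pearson's r of the ratios was 0.33 and Spearman's rho 0.07. For protein-coding members alone r was 0.07 (1620 members). These correlations are across genes, which are not independent, and within each compartment all genes come from the same libraries.

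Most short RNAs found in axons were higher after 7SK knockdown there too. Of 58 members up to 200 bases at 20 FPKM or more in cell bodies, 46 reached 1 FPKM in axons, and 34 of these lay above 0 (median 2.34, 30 higher and 9 lower past 2-fold). The other 12 were listed at 0 in both axonal knockdowns, among them Snord87, Gm23145 and Gm22584. Gm26397, whose length is not in the table, was also listed at 0 in both. Of the 46, 14 were listed at 0 in hnRNP R knockdown axons and 8 in 7SK knockdown axons, one of the latter being Gm25615 at 11.1 FPKM in hnRNP R knockdown axons. Over 17 snoRNAs at 20 FPKM or more on both sides, r was 0.002 and rho -0.07. Rny1 stood at 3311 FPKM in 7SK knockdown axons, 647 FPKM in hnRNP R knockdown axons and 1422 FPKM in control axons, and Gm25541 at 97.2, 3.50 and 16.6 FPKM. Eif4a1 stood at 132 and 51.4 FPKM, Rcc1 at 129 and 38.1 FPKM, Vgf at 25.2 and 12.4 FPKM, Nrep at 29.9 and 15.9 FPKM and Syp at 26.8 and 52.7 FPKM in the knockdowns, each on the same side as in cell bodies. Other genes named above lay on the opposite side in axons. Rpl7a stood at 25.2 FPKM in 7SK knockdown axons and 31.2 FPKM in hnRNP R knockdown axons, Rps3 at 194 and 213 FPKM, and Cdk9 at 9.12 and 12.2 FPKM. The merged record holding Gas5 stood at 86.1 and 108 FPKM, and that holding Snhg7 at 1.25 and 2.11 FPKM. Rn7sk stood at 3508 FPKM in 7SK knockdown axons and 4673 FPKM in hnRNP R knockdown axons, with the control at 2708 FPKM below both. Acta2 had the opposite order, at 176 FPKM in 7SK knockdown axons and 692 FPKM in hnRNP R knockdown axons, as did Tagln at 107 and 342 FPKM. The histone median was -0.24 in axons over 52 members, and that of cell cycle genes -0.25 over 25. Immediate early genes had -0.45 over 16, and fibroblast and smooth muscle markers -0.81 over 8. Medians above 0 were seen for snoRNA host genes (0.40 over 40), cytosolic ribosomal protein genes (0.12 over 75) and microglia markers (2.79 over 11). The difference between compartments was not tested.

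**Figure D5:**
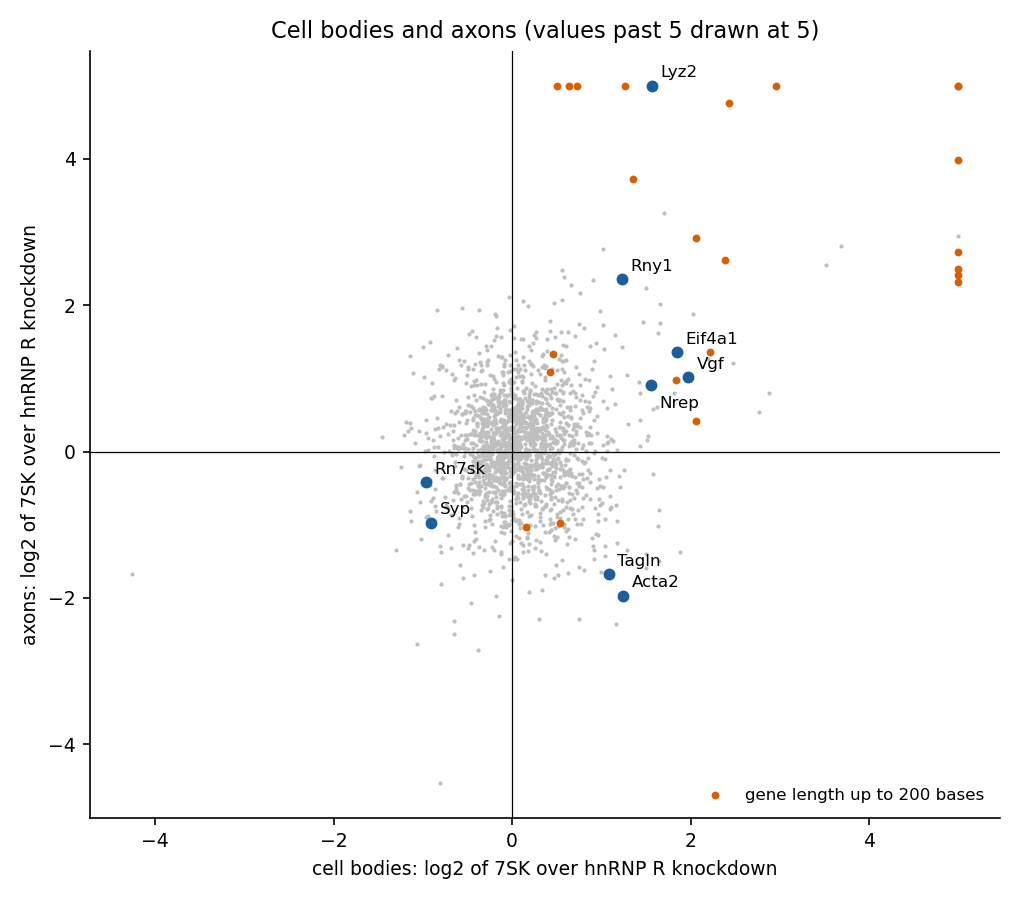
Log2 of 7SK over hnRNP R knockdown in axons (vertical axis) against cell bodies (horizontal axis) for 1855 members at 20 FPKM or more in both compartments (values past 5 drawn at 5). Members of up to 200 bases (orange) lie mostly in the upper right, while Acta2 and Tagln lie above 0 in cell bodies and below 0 in axons.

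hnRNP R contacts were read from 2 iCLIP libraries of whole motoneurons, which count cDNAs ending where the protein was crosslinked to RNA. Rn7sk had 4526 cDNAs in replicate 1 (1.26% of the library) and 3239 in replicate 2 (1.01%), the most of any member matched by name or identifier in either library. Hnrnpr had 25 and 24 cDNAs. Of the matched members at 20 FPKM or more, 112 of 143 in the higher tier had at least 1 cDNA (78.3%), 2185 of 2304 within 2-fold (94.8%), and 27 of 35 in the lower tier (77.1%). The median cDNA number over both libraries was 3, 22 and 8 in that order. Median gene length moved with it, at 5854 bases in the higher tier, 23853 within 2-fold and 18647 in the lower tier, and its part was not tested.

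Crosslinking of the named genes varied widely. Rny1 had 76 and 123 cDNAs and Rmrp 3 and 2. Dcx had 259 and 287 and Ptprz1 34 and 42, while Vgf had 2 and 0, Acta2 2 and 1, Cdk9 2 and 2, and Eif4a1 6 and 9. Genes far apart between the knockdowns thus included some with many and some with few hnRNP R cDNAs. The cDNA count grows with RNA level and gene length, and the series holds no control antibody library of motoneurons.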

How the data were processed

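Group FPKM values were computed by the authors and deposited as 1 value per group in tables on GRCm38; Cufflinks 2.2.1 and FastQC 0.10.1 are named, per the submitters' processing notes. The deposited tables also hold the authors' log2 fold change, a score (their test statistic) and a p-value with its q-value. The iCLIP files hold a deposited cDNA count per gene on mm9, per the file headers; they sum to 359005 and 319381 cDNAs. Aligner and annotation release: not given in the sources used here. A further 1318 per-sample columns were not used, all in the iCLIP tables; none holds an RNA level.

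The 7SK and hnRNP R values were joined by record and scaled as described, with 0.1 FPKM added, and no test was made on the ratio. The z test used scipy 1.17.1 in Python 3.11.15, with Benjamini-Hochberg adjustment, and was tested on simulated data. Gene types and lengths came from RefSeq GRCm38.p6 by symbol or synonym for 12747 members; 473 had no entry and 319 were merged records of several genes. iCLIP names matched 10971 members.

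The members, gene lists and tests were chosen with earlier results of these data known. Named genes were the targets, the 12 highest and 12 lowest ratios at 20 FPKM or more, up to 12 genes per direction past the z test and up to 4 per list at 5 FPKM or more, by size of the ratio; further list members were chosen after their values were seen. A few genes that the rule names are not reported here. Lists are described by counts and medians.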

Additional observations from a re-analysis of the deposited data

How the results depend on the processing

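No paired analysis was possible because the deposited tables hold 1 value per group, so the replicate block was not run and no replicate could be left out. With errors from the authors' test statistic, the z test called 2 records higher and 0 lower, none of them among the original 5; at 50 FPKM or more it called 2 higher and 1 lower, as Vgf and Ptprz1 are not tested there. The same 5 genes were called with merged records left out and with the direct ratio. Of the counts past 2-fold, those over all members became 898 higher and 445 lower at 5 FPKM or more in either knockdown, 1016 and 561 at 1 FPKM or more in both, and 2678 lower with no filter. At 20 FPKM or more, 88 were lower without scaling, and 121 were higher among protein-coding records alone, an alternative chosen after seeing the data. Adding 0.01 or 1 FPKM, own control ratios, centring and leaving out merged records kept each count within 1.5 times. Of 33 list medians, 25 kept their sign under every alternative run and 8 did not. That of excitatory interneuron markers became 0.53 at 1 FPKM or more in both knockdowns. The other 7 lay within 0.08 of 0: without scaling, cholesterol synthesis, motoneuron disease and Schwann genes became -0.05, -0.05 and -0.04, p53 targets -0.11 and oligodendrocyte genes -0.10, the last 2 also under other alternatives; granins became 0.06 with no filter and motoneuron markers 0.08 without merged records.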
